A study of Mus musculus with 6 samples.

Results

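Colonic lamina propria (LP) macrophages (MΦs) of Il10rb-/- mice were compared between 3 and 12 weeks of age. The comparison used 2 of the 6 RNA-seq libraries of the study, the 3-week and the 12-week Il10rb-/- library, and 10407 of the 14097 listed genes, those with 50 or more normalized counts in either library. All mice were untreated 129SvEv animals. The knockout mice carried a germline Il10rb deletion on both alleles, so every cell type of the host lacked the receptor, and the littermate co-housed Il10rb+/- mice carried it on 1 allele. Cells were sorted as the P3/P4 subset, which are CD45+CD11b+CD64+MHCII+ cells with intermediate CD11c and no CD103 or Ly6C on their surface. At 3 and 12 weeks each library came from 1 mouse, and at 1 week from pooled mice. The library codes of the 12-week pair carry another number than those of the younger ages, and its meaning is not given. With 1 library per group, a difference between the ages cannot be checked against replicates and carries no p-value, and whatever else differed between the sort or preparation of these libraries cannot be told apart from age. A value is the number of reads on a gene divided by the size factor of its library, and is not scaled by gene length. A ratio is 12 weeks over 3 weeks on the log2 scale, and its 95% interval is exact (Clopper-Pearson) and covers counting error only.

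IL10 signals through a receptor made of IL10Rα and IL10Rβ, and IL10Rβ is shared with the receptors of IL22 and the type III interferons. In MΦs the signal runs through STAT3 and restrains the transcription of inflammatory cytokines. Colonic MΦs are replenished from blood monocytes, which lose Ly6C and gain MHC class II and then scavenger, complement and apoptotic-cell receptors as they mature into resident cells. In mice without IL10 receptor signalling colitis can develop after birth, depending on strain and microbiota.

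The targeted gene was near background in the knockout at each age. Il10rb (chr16:91406164-91425834, GRCm38, plus strand, protein coding) was at 12.0, 24.6 and 27.4 normalized counts in Il10rb-/- MΦs at 1, 3 and 12 weeks, and at 1221, 939 and 1107 in Il10rb+/- MΦs. Every knockout library lay below every heterozygous library. The knockout libraries held 19128951 reads on listed genes at 3 weeks and 35266607 at 12 weeks, and the other 4 libraries held between 6700337 and 40754971. A normalized count of 50 was 56.9 reads in the 3-week and 78.5 reads in the 12-week knockout library.

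Genes of the sort gate and of the MΦ lineage were present at both ages. Csf1r, the receptor for the MΦ growth factor CSF1, was at 60398 normalized counts at 3 weeks and 46878 at 12 weeks, and Fcgr1, which encodes CD64, was at 1629 normalized counts at 3 weeks and 1324 at 12 weeks. Cd68 stood at 9505 and 11358, and Itgam, which encodes CD11b, at 1741 and 2040.2. The MHC class II gene H2-Ab1 stood at 239990 and 398482. These genes lay within 3-fold between the ages. Adgre1, which encodes F4/80, did not: it was at 20883 normalized counts at 3 weeks and 3799.6 at 12 weeks, a log2 ratio of -2.46. Ly6c2, which encodes the Ly6C antigen absent from the gated cells, was at 285 normalized counts at 3 weeks and 2611 at 12 weeks in the knockout and at 9.73 and 143 in the heterozygote, and Itgae, which encodes CD103, was at 7.03 and 33.7 in the knockout.

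In Il10rb-/- MΦs 577 genes were higher at 12 than at 3 weeks by more than 3-fold, 5.54% of the 10407 genes past the filter, and 737 genes, 7.08%, were lower by as much. Over 10-fold, with reads under 3 set to 3, were 122 genes that were higher and 213 that were lower. The median log2 ratio over all genes was 0.07. Scaling by total reads instead of size factors shifts every log2 ratio by -0.42, moves the median to -0.34 and gives 380 genes higher and 1107 lower, so that the higher genes make up 25.6% of calls instead of 43.9%. Under it the medians of the chemokine, lipid uptake, phagocytic receptor, lipid mediator and transcription factor lists described below turn from above to below 0. Over the same weeks 546 of 10666 genes (5.12%) were higher in Il10rb+/- MΦs by this measure, and 84 (0.788%) lower. Across genes, log2 values of the 2 knockout libraries correlated with r = 0.83, and those of the 2 heterozygous libraries with r = 0.90. Genes are not replicates, and these coefficients are descriptions. A gene that passed the filter only through the library in which it was high had to differ, so the counts of list members below describe the lists, beside the shares of all genes given here. In a bulk library, fewer cells of a type and less RNA per cell cannot be told apart.

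**Figure D1:**
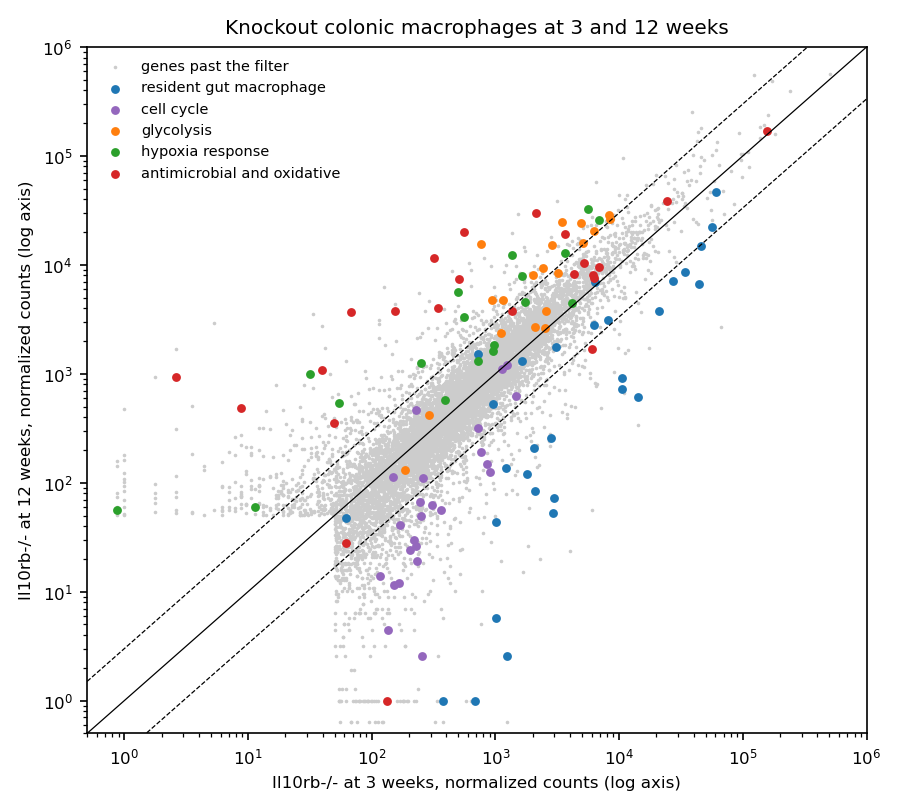
Normalized counts of each gene past the filter in the 3-week (x axis) and 12-week (y axis) Il10rb-/- library, both on log axes, with 5 gene lists in colour, the diagonal as a solid line and 3-fold either way as dashed lines. The resident MΦ and cell cycle genes mostly lie below the diagonal, with medians of -2.95 and -2.43, and the glycolysis, hypoxia and antimicrobial genes mostly above it, with medians of 1.71, 2.30 and 2.41.

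The 12 genes with the highest ratio among those with 1000 or more normalized counts in the higher library were led by calprotectin. S100a8 and S100a9, whose products form this antimicrobial protein of neutrophils and monocytes, had 3 and 6 reads at 3 weeks and 2628 and 4563 reads at 12 weeks. Their log2 ratios were 9.31 (7.76 to 11.59) and 9.11 (7.98 to 10.55), while the 12-week Il10rb+/- library was at 12.8 and 33.6 normalized counts. Nos2, the inducible nitric oxide synthase, was at 67.7 normalized counts at 3 weeks and 3705 at 12 weeks, a 54.7-fold difference, and between 1.98 and 12.2 in the 3 heterozygous libraries. Slc7a2, which imports the arginine that this enzyme uses, was at 39.6 and 1078. The acute-phase genes Saa3 and Hp (haptoglobin) were at 320.1 and 126 at 3 weeks and at 11531 and 6209 at 12 weeks, with log2 ratios of 5.17 (5.02 to 5.32) and 5.63 (5.39 to 5.87). Slpi, a secreted inhibitor of leukocyte proteases, was at 552 normalized counts at 3 weeks and 20013 at 12 weeks, 36.2-fold higher, and over 3-fold higher in the heterozygote too, at 253 and 851 (1.75). In each of these genes the 12-week knockout library lay above the other 5 libraries.

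The remaining 5 of the 12 were of mixed function. Upp1, the uridine phosphorylase, was at 39.6 normalized counts at 3 weeks and 2775 at 12 weeks (6.13). Egln3, a prolyl hydroxylase that marks HIF1α for degradation and is itself a HIF target, was at 31.7 normalized counts at 3 weeks and 1004 at 12 weeks (4.99). Areg, an epidermal growth factor receptor ligand made in tissue repair, was at 153 normalized counts at 3 weeks and 4412 at 12 weeks (4.85), and Rhov, a small GTPase, at 42.2 and 1717 (5.35). These 4 genes were also over 3-fold higher in Il10rb+/- MΦs, with log2 ratios of 2.26 for Egln3, 2.88 for Areg and 3.23 for Rhov, at lower 12-week levels than in the knockout. Spint1, a membrane serine protease inhibitor, had another course. It was at 3202, 33.4 and 3503 at 1, 3 and 12 weeks in the knockout and at 3204, 58.4 and 2543 in the heterozygote, so that in both genotypes the 3-week library was the low one.

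The 12 genes with the lowest ratio were led by genes of tissue-resident MΦs. Fcna, a ficolin that recognises microbial sugars, had 1418 reads at 3 weeks and 1 at 12 weeks, a log2 ratio of -10.94 (-16.24 to -8.45), and was at 1694 and 2928 normalized counts in Il10rb+/- MΦs. Lyve1, the hyaluronan receptor of perivascular MΦs and lymphatic endothelium, was at 1241 normalized counts at 3 weeks and 2.55 at 12 weeks, against 1312 and 3120.4 in the heterozygote. Folr2, a folate receptor of resident MΦs, was at 1017 and 5.73 (-7.47), and Cd163, the scavenger receptor for haemoglobin bound to haptoglobin, at 2901 and 52.2 (-5.80). Gas6, the ligand that bridges apoptotic cells to MERTK and AXL, was at 2970.4 and 72.0 (-5.37). Retnla, a secreted protein of alternatively activated MΦs, was at 14214 normalized counts at 3 weeks and 337 at 12 weeks, 42.2-fold lower at 12 weeks. The chemokine Pf4 was at 5989 and 56.7, 106-fold lower. For each of these 7 genes the 12-week heterozygous library was within 3-fold of the 3-week one, and the 12-week knockout library was the lowest of the 6.

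The other 5 were the transporter Slco2b1 (-7.40), the Fc receptor-like gene Fcrls (-6.87), the carbonyl reductase Cbr2 (-5.87) and the eicosanoid enzymes Hpgd (-6.76) and Alox5 (-6.12). At 1 week the 12 genes did not share a level. Fcna, Lyve1, Folr2, Cbr2, Cd163 and Retnla were lower at 1 than at 3 weeks in both genotypes, with Lyve1 at 12.0 in the knockout and 17.8 in the heterozygote and Retnla at 620.1 and 438. Slco2b1, Fcrls, Hpgd, Pf4, Alox5 and Gas6 were within 3-fold of their 3-week level at 1 week in both genotypes, for example Pf4 at 8792 and 8551.

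**Figure D2:**
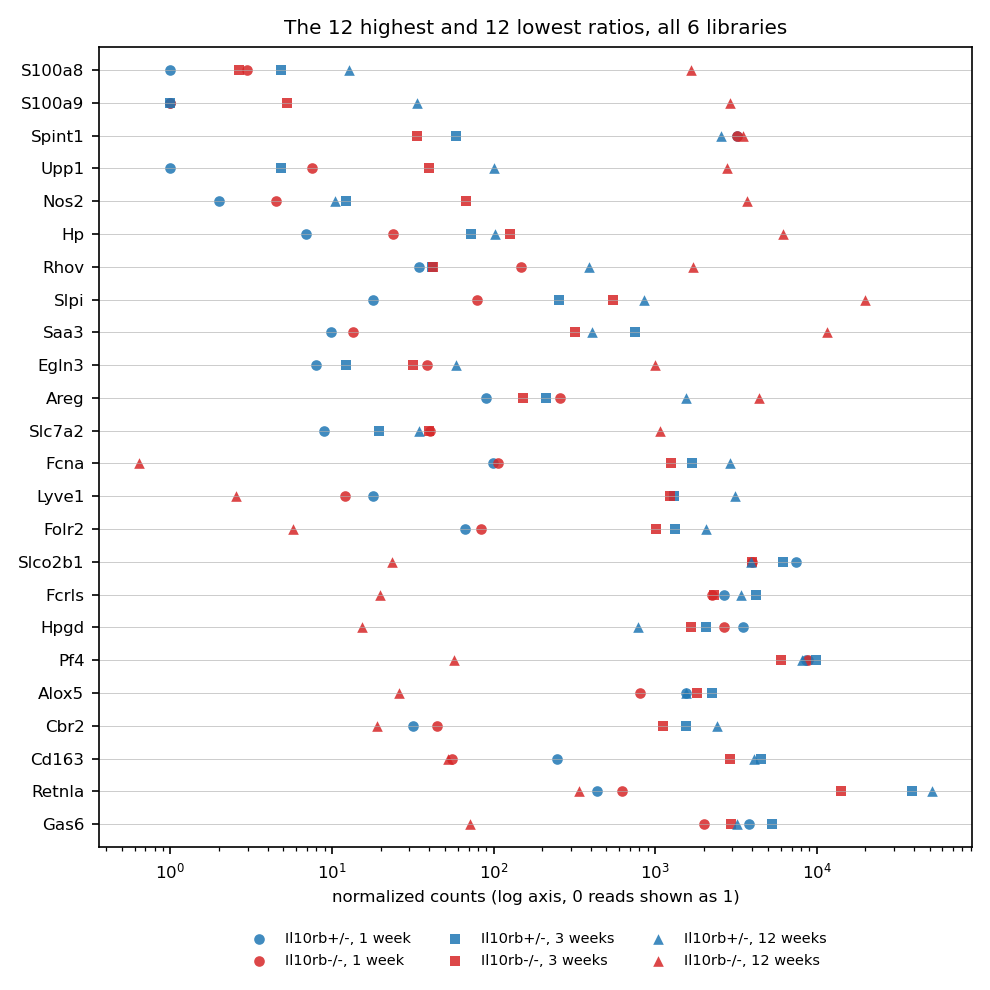
Normalized counts (x axis, log scale, 0 reads shown as 1) of the 12 genes with the highest and the 12 with the lowest ratio in all 6 libraries, with Il10rb-/- in red, Il10rb+/- in blue, and age as the marker shape. The 12-week knockout library lies apart from the other 5 in most of these genes, such as Nos2 at 3705 and Pf4 at 56.7 normalized counts.

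Genes at the edge of the 3-fold limit, among those with 1000 or more normalized counts, show what the limit separates. Just over it were Fam177a, Chd7 and Tmem123, at 3.00-, 3.01- and 3.01-fold higher, and just within it Gpr132, Irgm1 and Clic4, at 2.98-, 2.99- and 2.99-fold. On the other side Rab11fip5, C1qb and Fgd2 were 3.06-, 3.06- and 3.12-fold lower, and Hic1, Lrp6 and Plau 2.96-, 2.97- and 2.99-fold lower.

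Of the 30 listed resident MΦ genes, all 30 passed the filter, 20 were over 3-fold lower and none was over 3-fold higher, with a median log2 ratio of -2.95 against 0.07 over all genes. In Il10rb+/- MΦs none of the 30 members past the filter was over 3-fold either way, with a median of -0.34. Scavenger and lectin receptors were among the lower members. Mrc1, the mannose receptor, was at 14106 normalized counts at 3 weeks and 618 at 12 weeks (-4.51), and Stab1, a scavenger receptor, at 10604 and 732 (-3.86). Siglec1, the sialic acid receptor of tissue MΦs, was at 1218 and 136. The C-type lectin genes Cd209f and Cd209g had 782 and 427 reads at 3 weeks and 0 reads at 12 weeks, which is at least 360.0- and 197-fold lower when 0 reads are set to 3. These genes are near copies of one another, and reads shared between them are uncertain.

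Receptors and transcription factors of the maturing gut MΦ lay on the same side. Cx3cr1, the fractalkine receptor that marks resident gut MΦs, was at 10577 normalized counts at 3 weeks and 906 at 12 weeks (-3.55, -3.63 to -3.47), and at 15952 and 8074 in the heterozygote. Maf, a transcription factor of resident MΦs, was at 2835 and 257 (-3.46). Tgfbr1 and Tgfbr2, the receptor for TGFβ, had ratios of -1.38 and -1.15, each within 3-fold. Igf1 was at 1015 and 43.9, and Tmem119 at 1790.3 and 120.3. The complement genes C1qa, C1qb and C1qc were at 27019.5, 45652 and 34125 at 3 weeks and at 7106, 14925 and 8511 at 12 weeks. Cd4, which is also carried by long-lived gut MΦs, was at 2062 and 210.1.

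Some members lay outside this pattern. Timd4, a phosphatidylserine receptor of self-maintaining MΦs, was at 725 normalized counts at 3 weeks and 1535 at 12 weeks (1.08, 0.97 to 1.20), Cd9 had a ratio of 0.13, and Csf1r, the most abundant member, one of -0.37. Mertk, the receptor for Gas6, was at 953 and 532 (-0.84).

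Genes of monocytes and recently arrived MΦs lay higher at 12 weeks. Of 20 listed genes 19 passed the filter, 12 were over 3-fold higher and 1 lower, with a median of 2.11, and in the heterozygote 3 of 18 were higher with a median of 0.62. Plac8, a marker of Ly6C-high monocytes, was at 1706 normalized counts at 3 weeks and 14515 at 12 weeks (3.09), and Chil3 at 26.4 and 493 (4.22). Thbs1, thrombospondin, was at 42899.5 and 137739. Ace had a ratio of 4.68 and 4.28 in the heterozygote. Other genes of the list were not higher, with Ccr2, the monocyte chemokine receptor, at 19378 and 13312 and F13a1, coagulation factor XIII, at 9089 and 1039 (-3.13).

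Markers of several other cell types also lay higher at 12 weeks. Of 16 neutrophil markers 15 were in the table and 11 passed the filter, of which 10 were over 3-fold higher and 1, Mmp9, lower (-1.75), and the summed level of the list was 4753 at 3 weeks and 24049.8 at 12 weeks, against 2868 to 4772 in the heterozygote. Retnlg and Ngp had 0 reads at 3 weeks and 740 and 282 at 12 weeks. Ly6g, the defining surface marker, had 0 reads at 3 weeks and 15.9 normalized counts at 12 weeks. Most of the 12-week sum was in Trem1, at 914 and 9742, and Csf3r, at 2120.1 and 6944. Dendritic cell markers summed to 5349 and 45008 (9 of 12 over 3-fold higher). Most of both sums was in Ccr7, at 3159 normalized counts at 3 weeks and 38707 at 12 weeks. Flt3 was at 44.0 and 329, and Zbtb46 at 67.7 and 397. In the heterozygote the list summed to 3760 and 14726, with Ccr7 at 10331 at 12 weeks. There 7 of 11 dendritic cell markers were over 3-fold higher, Ccr7 and Flt3 among them (3.33 and 1.60). Siglech, of plasmacytoid cells, had 663 reads at 3 weeks and 0 at 12 weeks. Cd8a and the neutrophil genes Stfa2 and Stfa2l1 were also at 0 reads at 3 weeks. T and NK cell markers summed to 1292 and 3091, with 7 of 10 over 3-fold higher, and 3 with a filter of 200 normalized counts. In the heterozygote they summed to 837 and 2428, with 3 of 4 members past the filter over 3-fold higher. Ifng was at 3.52 normalized counts at 3 weeks and 506 at 12 weeks, Il17a at 8.79 and 220.3, and Cd3e at 10.6 and 93.0. The part of these cell types in the ratios of other genes, such as S100a8, was not tested.

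Epithelial markers summed to 1058 and 3122, with 8 of 14 over 3-fold higher, a count of 3 when scaled by total reads and 5 with a filter of 200 normalized counts, led by Cdh17 (3.67) and Car4 (3.28, and 3.15 in the heterozygote), and Epcam at 112 and 441. B and plasma cell markers summed to 1068 and 7609, against 1377 and 19314 in the heterozygote. Of the 12-week knockout sum, Sdc1, which MΦs also express, made up 5560.2, and Jchain 1359. Of 12 mast cell and basophil markers 4 were in the table, and only Kit and Hdc passed the filter. Nearly all of the 12-week knockout sum of 6315 was in these genes. Kit, at 541 and 2554, is on the dendritic cell list too. Hdc, which makes histamine, was at 155 normalized counts at 3 weeks and 3749 at 12 weeks (4.60), with 1.79 in the heterozygote, and Cma1, a mast cell protease, had 0 reads at 3 weeks and 1 at 12 weeks. Stromal and endothelial markers summed to 5370.1 and 1769, with Myh11, Prox1 and S100b at 0 reads at 12 weeks, while the heterozygous sums were 5229.6 and 11588. Most of the difference between the knockout sums was in Col3a1, at 1855 and 59.2, and in Lyve1, which is a member of this list too. Of 10 members past the filter 4 were over 3-fold lower and 2 higher, the endothelial genes Plvap (4.09) and Kdr (3.64). Eosinophil markers summed to 2941 and 7023, the latter the highest of the 6 libraries, and most of it was Adgre4, at 1995 and 6315. Of the 5 members past the filter Adgre4 was over 3-fold higher and 3 were lower, the lowest being Rnase2a at 182 and 8.91. Xist was at 3945 and 2431, and 4 Y-linked genes together had 11 and 46 reads.

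**Figure D3:**
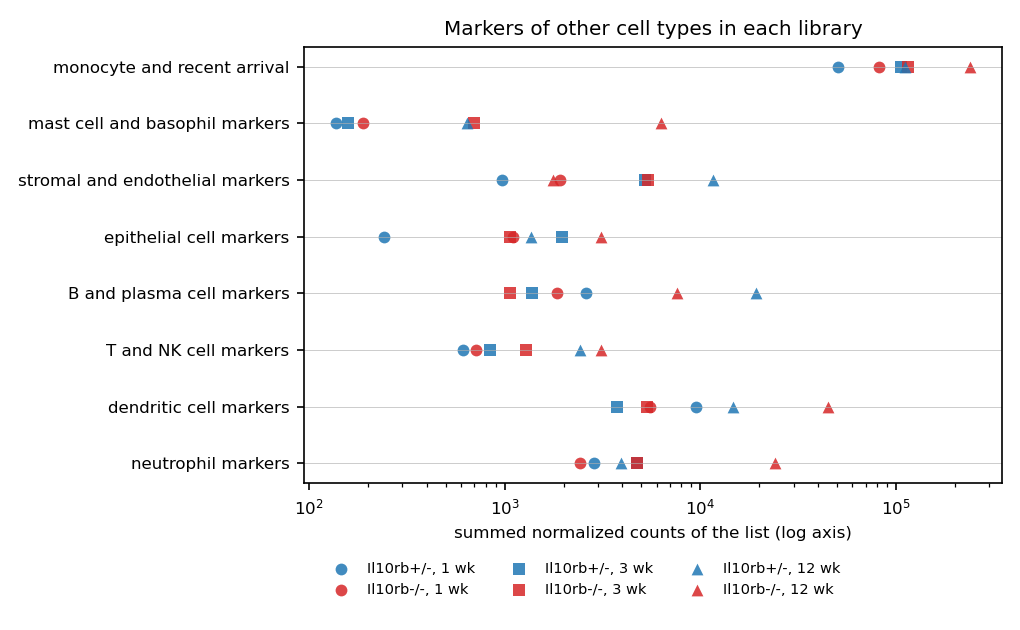
Summed normalized counts (x axis, log scale) of marker lists of other cell types in all 6 libraries, with Il10rb-/- in red, Il10rb+/- in blue, and age as the marker shape. The 12-week knockout library is the highest of the 6 for the neutrophil (24049.8), dendritic (45008), mast cell, epithelial, T cell and monocyte lists. Of this dendritic sum, 38707 was in Ccr7. The 12-week heterozygous library is the highest for the B cell and stromal lists.

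Inflammatory cytokines were divided. Of 21 listed genes 19 passed the filter, 9 were over 3-fold higher at 12 weeks and 1 lower, with a median of 1.22 in the knockout and 1.11 in the heterozygote. Il1b, the most abundant member, was at 122372 normalized counts at 3 weeks and 556585 at 12 weeks, 4.55-fold higher, and at 77011 and 159466 in Il10rb+/- MΦs. Il1a was at 10746 and 95237 (3.15). Il6, a cytokine that drives Th17 cells and the acute phase, was at 638 normalized counts at 3 weeks and 9045 at 12 weeks (3.82, 3.72 to 3.93), and at 674 and 1526 in the heterozygote. The 3 highest ratios were those of Il12a, a subunit of IL12, at 33.4 and 735 (4.46), Inhba, the activin A subunit, at 1519.5 and 29089.7 (4.26), and Il23a, the IL23 subunit, at 616 and 10458 (4.09). In the heterozygote 5 of 18 members past the filter were over 3-fold higher, among them Il23a at 109.5 and 1041 (3.25), Il1a (2.83) and Inhba (2.31).

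Other cytokines were within 3-fold or lower. Tnf was at 15567 normalized counts at 3 weeks and 11552 at 12 weeks (-0.43, -0.46 to -0.40), and Il12b, the subunit shared by IL12 and IL23, at 885 and 2056 (1.22). In the heterozygote Tnf had a ratio of 0.41, and Il12b was at 80.3 and 1225, a wider ratio (3.93) than in the knockout. Ifnb1, interferon β, had 577 reads at 3 weeks and 159 at 12 weeks (-2.33), which is 5.01-fold lower after scaling, and was at 786 and 1233 in the heterozygote. Il15 and Ebi3 had ratios of -1.26 and -0.88, each within 3-fold.

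Genes that restrain cytokine signalling lay higher, most by less than 3-fold. Of 18 members past the filter 3 were over 3-fold higher, with a median of 0.79 (0.38 in the heterozygote). These 3 were Il1rn, the IL1 receptor antagonist, at 43682 normalized counts at 3 weeks and 165484 at 12 weeks (1.92), Il1r2, the decoy receptor for IL1, at 9807 and 31739.9 (1.69), and Nfil3, a transcription factor induced by IL10, at 4834 and 16964 (1.81). Il10 itself was at 1619.7 normalized counts at 3 weeks and 2339 at 12 weeks (0.53, 0.45 to 0.61) in the knockout, and at 1701 and 10488 (2.62, 2.52 to 2.73) in the heterozygote. Il10ra was at 8971 and 8606. Socs3 and Bcl3, both targets of STAT3, had ratios of 0.74 and 1.14.

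Chemokines lay on both sides. Of 23 members past the filter 6 were over 3-fold higher and 6 lower, with a median of 0.23. The 6 lower were Pf4 and the CC chemokines Ccl2, Ccl7, Ccl8, Ccl12 and Ccl24. Ccl2 and Ccl7, the ligands of CCR2 that attract monocytes, were at 17455 and 10882 at 3 weeks and at 1719.9 and 660.3 at 12 weeks, 10.1- and 16.5-fold lower. In the heterozygote they were at 31419 and 23751 and then 31968 and 27828. Ccl24, an eosinophil chemokine, was at 695 and 114 (-2.61). The 6 higher were Cxcl3, a neutrophil chemokine, at 638 normalized counts at 3 weeks and 6331 at 12 weeks (3.31), Ccl22 and Ccl17, the ligands of CCR4, with ratios of 2.39 and 1.99, Ccl5 (2.02), and Cxcl9 and Cxcl11, ligands of CXCR3 (1.77 and 1.68). Cxcl3, Ccl22, Ccl17 and Ccl5 were over 3-fold higher in the heterozygote too, at 3.41, 4.05, 3.80 and 1.97, and Cxcl9 and Cxcl11 were within 3-fold there, at 1.39 and 1.37. Cxcl2, the most abundant member, was at 92254 and 161308 (0.81). Scaled by total reads, 3 chemokines were over 3-fold higher.

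Interferon-response genes were higher in part. Of 29 members past the filter 7 were over 3-fold higher and 1 lower, with a median of 0.74 in the knockout and 0.04 in the heterozygote, and scaled by total reads 3 were over 3-fold higher. Gbp2 and Gbp5, GTPases induced by interferon γ that attack intracellular microbes, were at 1474 and 1052 at 3 weeks and 7353 and 4243 at 12 weeks, with ratios of 2.32 (2.24 to 2.39) and 2.01 (1.92 to 2.10). In the heterozygote these genes were at 253 and 326 and then 328 and 196. Tgtp1, an immunity-related GTPase, had the highest ratio, at 27.3 and 255. Cd274, which encodes PD-L1, was at 8859 and 28512 (1.69). Genes best known from the type I interferon response were mixed, with Ifit2 at 1333 normalized counts at 3 weeks and 380.1 at 12 weeks (-1.81), Ifit3 with a ratio of -1.01, Mx1 at 314 and 318, and Rsad2 at 1276 and 4344 (1.77).

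The promoter of Gbp5 is shown because it holds both letter strings sought in this list, the interferon-stimulated response element GAAANNGAA and the gamma-activated site TTCNNNGAA, which are in capitals. It is the RefSeq window of 250 bases before to 50 after the start at chr3:142496684-142496983 (GRCm38.p6, plus strand, printed 5′ to 3′), from the C57BL/6J reference and not from the 129SvEv mice.
Gbp5: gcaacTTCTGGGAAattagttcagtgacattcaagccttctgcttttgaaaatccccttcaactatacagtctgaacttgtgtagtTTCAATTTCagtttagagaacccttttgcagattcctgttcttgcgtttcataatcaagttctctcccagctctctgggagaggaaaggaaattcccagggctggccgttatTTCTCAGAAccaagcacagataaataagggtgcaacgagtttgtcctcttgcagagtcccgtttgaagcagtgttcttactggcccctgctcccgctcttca
Both strings were searched on both strands, and the response element reads as its reverse complement here. The strings can overlap and do not in this window. Of the 23 list members with a window, 16 held the response element (69.6%) and 8 the gamma-activated site (34.8%), against 8.57% and 8.47% of all 27025 windows. A window exists for 439 of the 577 genes that were higher in the knockout, of which 45 (10.3%) held the response element and 44 the gamma-activated site, against 7.62% and 6.96% of the 8145 genes past the filter with a window. A match describes letters and is not a binding site.

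The MHC class I pathway lay in a narrow band. All 16 members had a ratio above 0, though not all under scaling by total reads, and none was over 3-fold, with a median of 1.06 (0.28 in the heterozygote). B2m, the light chain, was at 61896 normalized counts at 3 weeks and 133451 at 12 weeks (1.11), Tap1, the peptide transporter, at 3656 and 9842 (1.43), and the immunoproteasome genes Psmb8, Psmb9 and Psmb10 had ratios of 1.29, 1.29 and 1.27. The heterozygous ratios of these 3 were 0.31, 0.17 and 0.27. MHC class II genes had a median of 0.48, and 0.65 in the heterozygote. Cd74, the invariant chain, was at 506153 and 570236, and Ciita, the class II transactivator, at 8253 and 7991. The costimulatory genes on that list stood above it, with Cd40 at 1621 normalized counts at 3 weeks and 5440.5 at 12 weeks (1.75), Cd80 at 1.36 and Cd86 at 1.23.

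Arginine metabolism and antimicrobial genes held some of the widest differences. Of 23 members past the filter 12 were over 3-fold higher and 2 lower, with a median of 2.41 (0.60 in the heterozygote). Arg1, the arginase that competes with NOS2 for arginine, had 3 reads at 3 weeks and 931 normalized counts at 12 weeks, a log2 ratio of 8.46 (6.91 to 10.74), and the mitochondrial Arg2 was at 506 and 7451 (3.88). Ass1, which rebuilds arginine from citrulline, was at 346 and 4015 (3.54). Arg2 and Ass1 were over 3-fold higher in the heterozygote too, at 1.62 and 1.93. Irg1 (also named Acod1), which makes the antibacterial metabolite itaconate, was at 2109 normalized counts at 3 weeks and 29911 at 12 weeks (3.83), against 207 and 823 in the heterozygote. Lcn2, which binds bacterial siderophores, was at 8.79 and 488, and Sod2, the mitochondrial superoxide dismutase, at 3650.1 and 19335 (2.41). The NADPH oxidase genes stayed closer, with Cybb at 24543 and 38646 and ratios of 0.50 and 0.94 for Ncf1 and Ncf4. Lyz2, the MΦ lysozyme and the most abundant member, was at 157181 and 169416 (0.11). Lower at 12 weeks were Marco, a scavenger receptor for bacteria, with 152 reads and then 0 reads (at least 70.0-fold), and Lyz1 (-1.86), whose reads can be hard to separate from those of its near copy Lyz2.

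Genes along most of the glycolytic pathway were higher. Of 19 members past the filter 12 were over 3-fold higher, none lower, and the median was 1.71 (0.43 in the heterozygote), and 7 were over 3-fold higher when scaled by total reads. At its entry Slc2a1, the glucose transporter GLUT1, was at 3426 normalized counts at 3 weeks and 24937 at 12 weeks (2.86, 2.82 to 2.91). The enzymes of the middle steps, Aldoa, Tpi1, Gapdh and Pgk1, were at 4939, 2859.6, 6273 and 936 at 3 weeks and at 24261, 15218, 20476 and 4762 at 12 weeks, 4.91-, 5.32-, 3.26- and 5.09-fold higher. At the end of the pathway Pkm was at 8333 and 28393 (1.77), Ldha, which makes lactate, at 8481 and 26338 (1.63), and Slc16a3, the lactate exporter MCT4, at 769 normalized counts at 3 weeks and 15651 at 12 weeks (4.35), the highest ratio of the list. The hexokinase genes lay within 3-fold, with ratios of 1.08, 0.38 and 0.07 for Hk1, Hk2 and Hk3, and the muscle isoform Pfkm had a ratio of -0.50, while Pfkl was 4.16-fold and Pfkp 4.01-fold higher. In the heterozygote Slc2a1 and Slc16a3 had ratios of 1.33 and 2.64, and the other members named here lay between -0.88 and 0.68.

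Genes induced by low oxygen through hypoxia-inducible factors were higher with them. Of 22 listed genes 18 passed the filter, 12 were over 3-fold higher and none lower, with a median of 2.30 (0.46 in the heterozygote). Hif1a, the inducible subunit, was at 6820.2 normalized counts at 3 weeks and 26064 at 12 weeks (1.93), against 4081 and 5189.8 in the heterozygote. Vegfa, the angiogenic factor and the most abundant member, was at 5653 and 32309 (2.51), and over 3-fold higher in the heterozygote too, at 1231 and 4665 (1.92). Ero1l, an oxidase of the endoplasmic reticulum, was at 1352 and 12218 (3.18) with 1049 and 1128 in the heterozygote. Bnip3, which directs mitochondria to autophagy, was at 553 and 3308 (2.58). Ndrg1 was higher in both genotypes, with ratios of 3.51 and 3.18. Ak4 had 1 read at 3 weeks and 89 at 12 weeks (6.01, 3.49 to 11.33). Plin2, which coats lipid droplets, was at 4124 and 4466, the lowest ratio of the list (0.11).

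The promoters of Egln3 and Slc16a3 are shown because these genes had the widest differences among the abundant hypoxia and glycolysis genes and hold the core of the hypoxia response element, ACGTG, in capitals. The windows are those of RefSeq (GRCm38.p6, printed 5′ to 3′), at chr12:54203825-54204124 on the minus strand for Egln3 and chr11:120948817-120949116 on the plus strand for Slc16a3.
Egln3: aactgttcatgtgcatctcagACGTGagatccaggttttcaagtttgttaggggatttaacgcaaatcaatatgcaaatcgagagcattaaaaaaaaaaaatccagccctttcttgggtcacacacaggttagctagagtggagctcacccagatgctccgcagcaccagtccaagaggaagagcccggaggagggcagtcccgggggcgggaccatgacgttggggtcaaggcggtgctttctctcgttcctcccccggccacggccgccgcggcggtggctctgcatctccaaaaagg
Slc16a3: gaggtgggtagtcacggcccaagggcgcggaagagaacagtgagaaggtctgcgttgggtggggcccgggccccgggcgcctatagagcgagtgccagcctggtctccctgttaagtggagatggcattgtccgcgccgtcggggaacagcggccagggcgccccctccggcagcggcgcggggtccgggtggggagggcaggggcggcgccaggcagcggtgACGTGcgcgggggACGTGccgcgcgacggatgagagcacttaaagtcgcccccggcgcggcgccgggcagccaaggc
Searched on both strands, ACGTG was in 11 of 19 hypoxia windows (57.9%) and 10 of 19 glycolysis windows (52.6%), against 19.7% of all windows and 26.9% of those of genes past the filter. In the genes over 3-fold higher and lower the shares were 29.2% and 19.0%.

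No gene of mitochondrial respiration or sterol synthesis past the filter was over 3-fold either way. All 32 genes of oxidative phosphorylation lay within 3-fold, with a median of 0.78 (0.21 in the heterozygote). Atp5b, a subunit of ATP synthase and the most abundant member, was at 10634 and 19652 (0.89), Cycs, cytochrome c, at 657 and 1815 (1.47), and Ndufs1, of complex I, at 1280.3 and 1212 (-0.08). The 19 sterol synthesis genes had a median of 0.78 (0.13 in the heterozygote), with Insig1, which holds back the pathway, at 4478 and 3979 (-0.17). Under scaling by total reads, which takes 0.42 from each ratio, both medians stay above 0.

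In lipid uptake and efflux 3 of 22 genes were over 3-fold higher and 4 lower, with a median of 0.02. Apoe, the apolipoprotein that MΦs secrete, was at 66793 normalized counts at 3 weeks and 2663 at 12 weeks, 25.1-fold lower, and at 105967 and 81265 in the heterozygote. Cd36, a receptor for oxidised lipids and apoptotic cells, was at 3458 and 448 (-2.95) in the knockout and 3349 and 6752 (1.01) in the heterozygote. Lpl was at 1081 and 334 (-1.70), with 1.22 in the heterozygote. The cholesterol exporter Abca1 was at 2972 and 2872. Olr1, a receptor for oxidised LDL, and Nr1h3, the nuclear receptor LXRα, were higher, with ratios of 2.38 and 2.15.

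Enzymes of the eicosanoid pathway lay on both sides. Ptgs2, the inducible cyclooxygenase, was at 38822 normalized counts at 3 weeks and 251994 at 12 weeks (2.70, 2.68 to 2.71), and Ptges, the synthase that makes prostaglandin E2 from its product, at 62.4 and 1314 (4.40). Ptgs1, the constitutive cyclooxygenase, was at 7127 normalized counts at 3 weeks and 481 at 12 weeks (-3.89, -4.00 to -3.78). Hpgd, which inactivates prostaglandins, was at 1662 and 15.3 (-6.76), and Hpgds, which makes prostaglandin D2, at 2104 and 84.7 (-4.63). In leukotriene synthesis Alox5 was at 1819 and 26.1 and Ltc4s at 513 and 43.3, while the partner of Alox5, Alox5ap, was at 1843 and 4730.5 (1.36). Of the 17 genes past the filter 2 were over 3-fold higher and 5 lower. In Il10rb+/- MΦs the ratios of Ptgs2, Ptges, Ptgs1, Hpgd and Alox5 were 0.83, 1.78, -0.77, -1.41 and -0.53.

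Recognition and uptake receptors were divided as well. Among 24 phagocytic receptors 5 were over 3-fold higher and 4 lower. The C-type lectins Clec4e, Clec4d and Clec7a, which bind mycobacterial and fungal ligands, were at 6463, 461 and 16550.1 at 3 weeks and 57621, 3039 and 54478 at 12 weeks (3.16, 2.72 and 1.72). In the heterozygote Clec4e and Clec4d were over 3-fold higher too (1.72 and 2.28). Cd300lf had a ratio of 2.25. C3ar1, the receptor for complement C3a, was at 11716 and 1638 (-2.84), and Cd209b had 182 reads and then 0 reads, at least 83.8-fold lower. Axl, with Mertk a receptor for Gas6, was at 16249 and 7451 (-1.12), and the Fc receptors Fcgr2b, Fcgr3 and Fcgr4 had ratios of 0.43, 0.04 and 0.35. Of 24 pattern recognition genes 4 were over 3-fold higher and 1 lower. Cd14, the LPS co-receptor, was at 45597 normalized counts at 3 weeks and 181665 at 12 weeks (1.99) and Tlr2 at 9073 and 28876 (1.67), while Tlr4 was at 1193 and 959 (-0.32) and the endosomal receptors Tlr3, Tlr7 and Tlr9 had ratios of -1.68, -1.15 and -1.39. The 24 lysosomal genes all lay within 3-fold, with a median of -0.25.

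Genes of matrix, coagulation and iron handling gave smaller groups. Of 23 matrix and coagulation genes 9 were over 3-fold higher and 5 lower, with a median of 1.17. In the heterozygote 7 of 24 were over 3-fold higher and 1 lower, with a median of 1.03. F3, tissue factor, was at 337 normalized counts at 3 weeks and 2606 at 12 weeks (2.95), and F10, coagulation factor X, at 1184 and 8544 (2.85), against 796 and 999 in the heterozygote. Tgm2, a transglutaminase, was at 10042 and 43773 (2.12), with 1.48 in the heterozygote. Mmp13, a collagenase, was at 9994 and 2308 (-2.11) and in the heterozygote at 12019 and 25003 (1.06), and its inhibitor Timp2 was at 2266 and 497 (-2.19). Slc40a1, ferroportin, which exports iron, was at 1212 normalized counts at 3 weeks and 78.3 at 12 weeks (-3.95) and lower in the heterozygote too (-2.28). Fth1, the ferritin heavy chain, was at 171849 and 492236 (1.52), while Ftl1, the light chain, was at 58277 and 58667 (0.01).

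Proliferation genes were lower, with exceptions among the best known markers. Of 24 cell cycle genes 17 were over 3-fold lower, none higher, and the median was -2.43 (-0.58 in the heterozygote, in which none was over 3-fold either way). Among mitotic genes Ccnb1, cyclin B1, was at 151 normalized counts at 3 weeks and 11.5 at 12 weeks (-3.72), Top2a, a topoisomerase, at 901 and 125 (-2.85), and Tpx2, a spindle factor with the lowest ratio, had 291 reads at 3 weeks and 4 at 12 weeks. Cdk1, the mitotic kinase, was at 245 and 66.2 (-1.89). Of the helicase genes of DNA replication Mcm6 was at 848 and 149.6 and Mcm2 at 769 and 189.8, while Mcm3 and Mcm5, at -1.21 and -1.19, were within 3-fold. Mki67, the gene of the Ki-67 antigen, was at 1130.0 normalized counts at 3 weeks and 1111 at 12 weeks (-0.02, -0.13 to 0.08), Pcna at 1248 and 1212 (-0.04), and Bub1b at 226 and 464 (1.04), the only member with a ratio above 0.

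The promoter of Cdk1 is shown because it holds the 2 letter strings known from genes of the G2 and M phases, the CCAAT box and the cell cycle homology region TTTGAA, in capitals. Its RefSeq window lies at chr10:69352863-69353162 (GRCm38.p6, minus strand, printed 5′ to 3′).
Cdk1: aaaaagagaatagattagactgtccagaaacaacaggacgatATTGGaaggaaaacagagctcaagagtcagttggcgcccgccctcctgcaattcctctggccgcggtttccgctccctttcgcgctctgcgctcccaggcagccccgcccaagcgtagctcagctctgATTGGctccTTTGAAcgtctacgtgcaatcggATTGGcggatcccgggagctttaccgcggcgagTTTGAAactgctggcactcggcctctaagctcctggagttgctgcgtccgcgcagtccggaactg
The CCAAT boxes read as their reverse complement ATTGG in it. On both strands CCAAT was in 19 of 21 cell cycle windows (90.5%) and TTTGAA in 11 (52.4%), against 37.9% and 18.1% of all windows. In genes over 3-fold lower the shares were 41.9% and 19.5%, beside 38.5% and 11.0% of genes within 3-fold. The list was made from known cell cycle genes, as the lists above were made from known targets, so these shares describe the lists.

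Transcription factors and stress genes mostly lay within 3-fold. Of 26 MΦ transcription factors 2 were over 3-fold higher (Hif1a and Nr1h3) and 2 lower (Maf and Cebpa, the latter at 2968 and 763). Spi1, which encodes PU.1, and Zeb2 had ratios of 0.59 and 0.01, and Cebpb, the most abundant member, was at 48478 and 90806 (0.91). Immediate early genes, which are also raised by tissue dissociation, had a median of -0.07, with Fos at 183135 and 157398, Jun at 85366 and 36293 (-1.23) and Fosl1 at 28.1 and 795 (4.82), with 4.12 in the heterozygote. Heat shock genes had a median of 0.53 with none over 3-fold, while in the heterozygote 8 of 14 were over 3-fold higher with a median of 1.81. Bag3, for example, was at 4525 and 5071 in the knockout and 2081 and 14792 in the heterozygote. Of 18 genes of the unfolded protein and amino acid responses 1 was over 3-fold higher, the cystine importer Slc7a11 (1211 and 10009), and 1 lower, Ddit3 (-1.65). Clock genes had a median of -0.20, with Per2 at 182 and 17.8 (-3.35) and Nr1d1 at 267 and 56.7 (-2.24), and the hour of sorting is not given in the sources used here.

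**Figure D4:**
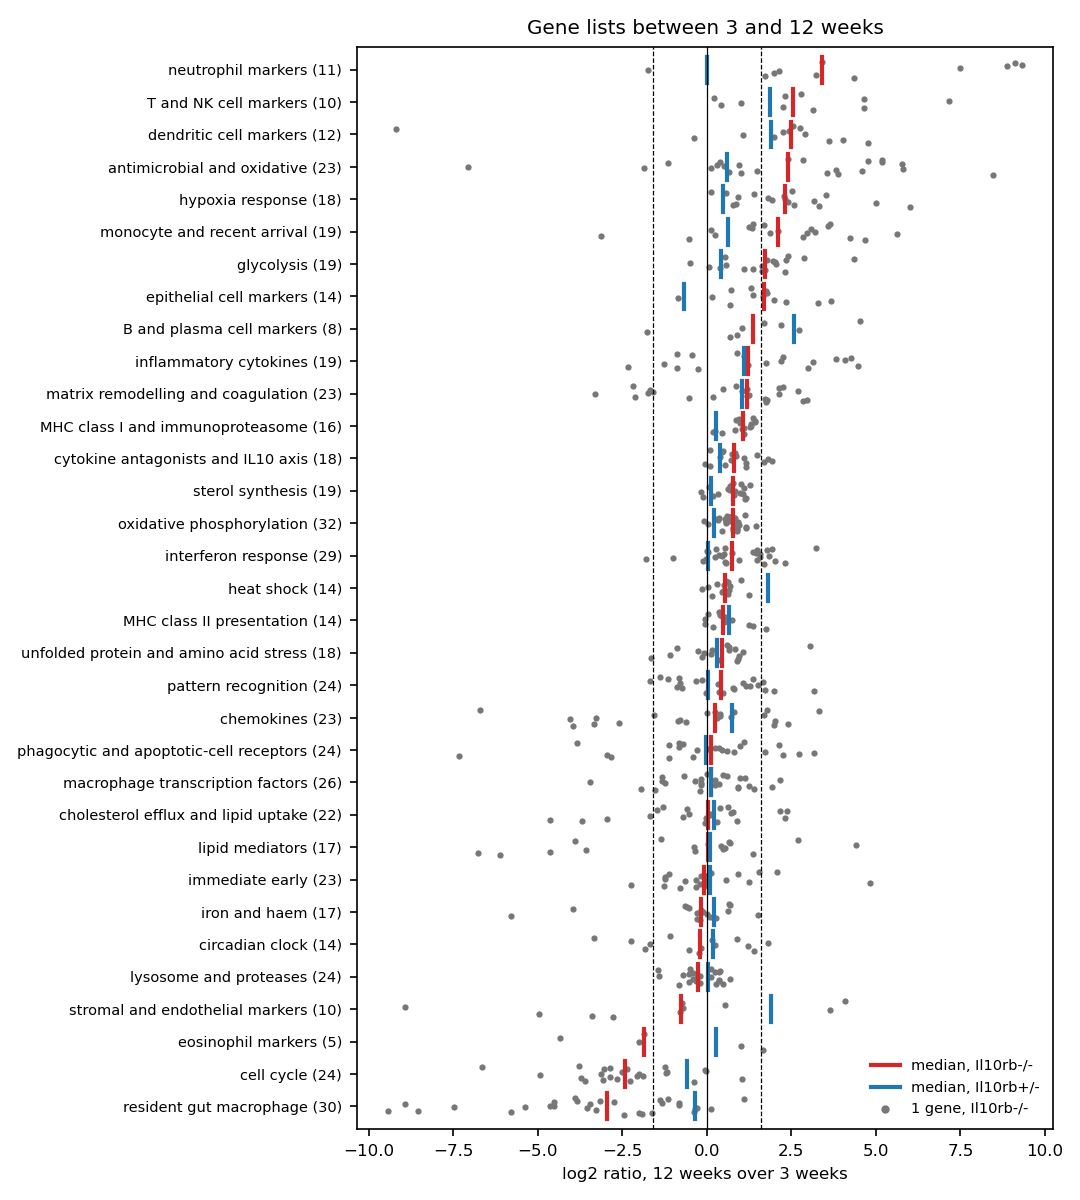
Log2 ratio of 12 over 3 weeks (x axis) for the members of each list with 5 or more genes past the filter (number in brackets), 1 grey point per gene in Il10rb-/- MΦs, with the median in Il10rb-/- (red) and Il10rb+/- (blue) MΦs and dashed lines at 3-fold. The lists run from neutrophil markers at 3.41 to resident MΦ genes at -2.95, and the heterozygous medians span a narrower range outside the lists of other cell types and heat shock.

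The heterozygous libraries of the same ages give the course of these genes with 1 intact allele. Knockout and heterozygous ratios share no library and correlated with r = 0.48 across the 10149 genes past both filters, a description across genes. Of the 577 genes higher in the knockout 444 passed the heterozygous filter and 177 were also over 3-fold higher in the heterozygote. These are 30.7% of the knockout and 32.4% of the heterozygous genes. Of the 737 lower genes 709 passed the heterozygous filter and 35 were also lower in the heterozygote. These are 4.75% of the knockout and 41.7% of the heterozygous genes. Over all genes past each filter, 5.54% were higher and 7.08% lower in the knockout, and 5.12% and 0.788% in the heterozygote. For the higher genes past both filters the median ratio was 2.14 in the knockout and 1.31 in the heterozygote, and for the lower genes -2.44 and -0.42. The genes were chosen on the knockout ratio, so a wider knockout median follows from the choice. Whether the genotypes differ was not tested, since each group is 1 library.

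**Figure D5:**
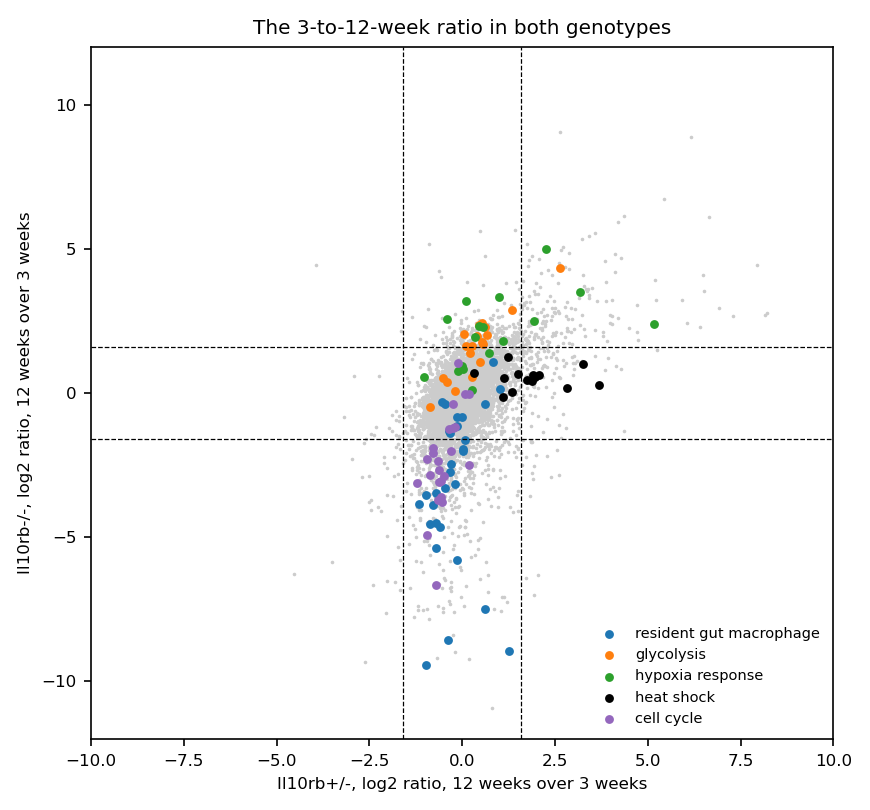
Log2 ratio of 12 over 3 weeks in Il10rb+/- (x axis) and Il10rb-/- (y axis) MΦs for genes past both filters, with 5 lists in colour and dashed lines at 3-fold. Resident MΦ and cell cycle genes spread along the y axis, and heat shock genes along the x axis, with medians of 0.53 in the knockout and 1.81 in the heterozygote.

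A fit over both genotypes asks which genes differ between 3 and 12 weeks in the same way in each. In limma, with genotype as a term over all 6 libraries and 11067 genes, 3 genes (0.0271%) were higher at 12 weeks and 0 (0%) lower at an adjusted p under 0.05, and 1246 and 1015 at an unadjusted p under 0.05. With 2 residual degrees of freedom, and a spread that is itself the difference in course between genotypes, this fit does not test the knockout alone. The 3 genes were Spint1 (log2 difference 6.04), Cxcl3 (3.36) and the hypoxia gene Ndrg1 (3.34), each with an adjusted p of 0.0343 in limma and higher at 12 weeks in both genotypes. Without the 1-week libraries the counts were 99 and 3.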

How the data were processed

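RNA-seq was performed on P3/P4 LP MΦs sorted from Il10rb-/- and Il10rb+/- 129SvEv mice, 6 libraries in all, sequenced as single-end reads of 75 bases. The authors aligned reads to mm10 with TopHat and scaled gene counts with DESeq, and the submitters' processing notes also name Trim Galore and HTSeq. Tool versions, the annotation, and whether counting used strand are not given in the sources used here, so overlapping genes cannot be separated. The library kit and the bead selection are described differently in the labels and the methods. The signal values deposited by the authors are counts normalized by DESeq size factors, with 0 reads shown as 1. Each library's values were whole multiples of 1 read (0.473 to 2.43 normalized counts, all values whole within 0.1 reads), from which reads, exact intervals at 95% and the floor of 3 reads were taken. The top 10 genes took 9.54 to 14.4% of reads.

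Genes with 50 or more normalized counts in either knockout library at 3 or 12 weeks were kept, and over 3-fold was the call. The members and the 35 gene lists were chosen with earlier results of these data known. Genes named are Il10rb, the 12 highest and 12 lowest ratios with 1000 or more normalized counts, the 3 on each side of each limit, and the extreme and most abundant members of each list, and further list members were named after their values were seen. The sex-linked list had 1 gene past the filter, Xist, with a ratio of -0.70. The age effect in both genotypes was fitted with limma 3.58.1 (R 4.3.3) on log2(value + 1), Benjamini-Hochberg adjusted. The plan set a count model on recovered reads if the values were whole reads. They were, but that model was not run. Because each group is 1 library or pool, p-values measure only the spread between these libraries. Other steps used Python 3.11.15, numpy 2.4.6, pandas 2.3.3, scipy 1.17.1 and matplotlib 3.10.9, and were tested on simulated data. Of 14097 genes 14085 were found in GENCODE GRCm38. Promoters are RefSeq windows of 300 bases (GRCm38.p6), the first listed per symbol, with one for 8145 genes past the filter. Nos2 and Iigp1 have no entry. Some list members are not reported here by name.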

Additional observations from a re-analysis of the deposited data

Results flagged for a closer look

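In 21 genes the ratio of 12 over 3 weeks was over 3-fold in both genotypes and in opposite directions, 3 of them higher and 18 lower in the knockout. Of the 6 with 1000 or more normalized counts in 1 of the 4 libraries, 5 are given here, because the single library of each genotype moved the opposite way, and the difference between the genotypes was not tested. Pmp22, a myelin protein also made by other cells, was at 505 and 67.5 normalized counts at 3 and 12 weeks in the knockout (-2.90) and at 767 and 4053 in the heterozygote (2.40). Stromal and endothelial markers summed to 5370.1 and 1769 in the same knockout libraries and to 5229.6 and 11588 in the heterozygous ones. In the knockout 4 of 10 members past the filter were over 3-fold lower, Lyve1 of the resident MΦ list among them, and 2 higher. The part of stromal and endothelial cells was not tested. Hal, which breaks down histidine, was at 3618 and 533 (-2.76) and at 2042 and 7519.7 (1.88). Pdgfb, a growth factor for mesenchymal cells, was at 918 and 159 (-2.53) and at 557 and 2115 (1.92). Blnk, an adaptor of B cell receptor signalling, was at 457 and 99.3 (-2.20) and at 584 and 1915 (1.71). B and plasma cell markers summed to 1068 and 7609 in the same knockout libraries and to 1377 and 19314 in the heterozygous ones. Jchain alone made up 13324.5 of the 12-week heterozygous sum, and the part of these cells was not tested. Mmp8, a collagenase of neutrophils, was the only one of the 5 that was higher in the knockout. It was at 262 and 1151 (2.13) there and at 404 and 128 (-1.66) in the heterozygote. Neutrophil markers, a list that holds Mmp8 itself, summed to 4753 and 24049.8 in the knockout, most of the latter in Trem1 and Csf3r. Their part was not tested.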

How the results depend on the processing

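Scaled by total reads, 380 genes were over 3-fold higher and 1107 lower. With genes of 1 read or more the counts were 1168 and 1585, over 2-fold they were 1197 and 1336, and with a filter of 200 normalized counts 352 genes were lower. Of the lists followed, total reads left 3 chemokines, 3 interferon genes, 7 glycolysis genes and 3 epithelial markers over 3-fold higher, and the filter of 200 left 5 epithelial and 3 T and NK cell markers, and the other 84 of 90 list counts stayed within 1.5 times. TMM scaling, a pseudocount of 10, the filter over all 6 libraries and the nearer bound of the counting interval moved neither count of all genes by over 1.5 times. Of the 245 genes named, 230 kept the sign of their ratio under total reads, 240 under TMM and 244 under the pseudocount, and of 169 over 3-fold 146, 164 and 164 stayed so. In the age effect, leaving out the 1-week libraries gave 99 genes higher and 3 lower, on 1 residual degree of freedom. The 2 planned count-model alternatives were not run, although whole reads could be recovered. No paired analysis was possible because each group has 1 library. Depth limits genes near the floor: 33 of the higher genes had 3 reads or fewer at 3 weeks and 58 of the lower genes at 12 weeks.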
